A study of Triticum aestivum with 4 samples.

Results

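Catalase, thioredoxin, glutathione transferase and a gene named Prx1 were followed in the flag leaf of wheat cultivar TAM 107 after a short heat treatment. Every probe set whose gene carries the symbol or synonym CAT1, Prx1, Trx-M or GSTZ1 was taken, which gave 10 of the 61179 probe sets on the array: 2 for CAT1, 4 for Prx1 (LOC606328 in the annotation), 1 for Trx-M (LOC542973) and 3 for GSTZ1 (LOC543412). Probe sets of a gene are lettered here from A, in order of falling signal, and the plots give the array's identifier beside each letter. The study asked how leaf transcripts respond to heat, with 2 control arrays from plants under normal conditions and 2 arrays from plants held for 1 h at 40 °C in a growth chamber. All plants had grown in the field and were potted before flowering, and leaves were taken about 10 days after pollination. Whether control plants went into a chamber as well is not in the labels, so effects of the transfer and of the heat cannot be told apart. Nor is it stated that the 2 arrays of a group came from different plants. The p-values therefore cover the array-to-array spread, which may be technical.

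Leaf cells in the light make hydrogen peroxide in peroxisomes during photorespiration and in chloroplasts by electron leakage, and heat adds to this load. Catalase splits hydrogen peroxide without a reducing partner, whereas the thiol systems pass electrons from thioredoxin or glutathione to their targets. Thioredoxin m is a chloroplast form that receives electrons from photosynthesis and switches chloroplast enzymes on in the light. Zeta-class glutathione transferases isomerise maleylacetoacetate in tyrosine breakdown. The name Prx is used in plants both for peroxiredoxins, which are reduced by thioredoxin, and for secreted class III peroxidases. The annotation used here gives the name without a product, so which of these Prx1 encodes was not settled here and no role is assigned to it. Likewise the name GSTZ1 is taken to mean the zeta class from the name alone.

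Changes in these genes were small. Of the 10 probe sets, all of which passed the brightness filter, 2 were higher and 2 were lower in heat at an adjusted p below 0.05 in limma. Among all 30590 tested probe sets 37.0% passed, 14.2% higher and 22.9% lower, so 4 of 10 is near the share over all of them. That pool, and the medians taken over it below, are not matched to the members for signal. With a stricter filter, at the 75th percentile of signal, 9065 of 15295 probe sets passed. Of the 8 members it kept 3 passed, a lower share, though of few probe sets. The median log2 fold change of the 10 was -0.03 and the median absolute one 0.17, against -0.15 and 0.39 over all tested probe sets, and 0 of the 10 changed by 2-fold or more. For 9 of the 10 the groups did not overlap, with heat above control for 5 and below it for 4. Over all tested probe sets 69.1% did not overlap, 25.5% with heat above and 43.6% with heat below. The calls rest on limma's estimate of the spread: without its intensity trend 0 of the 10 passed (3 at an unadjusted p below 0.05). Over all 30590 tested probe sets 7578 passed without the trend.

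**Figure D1:**
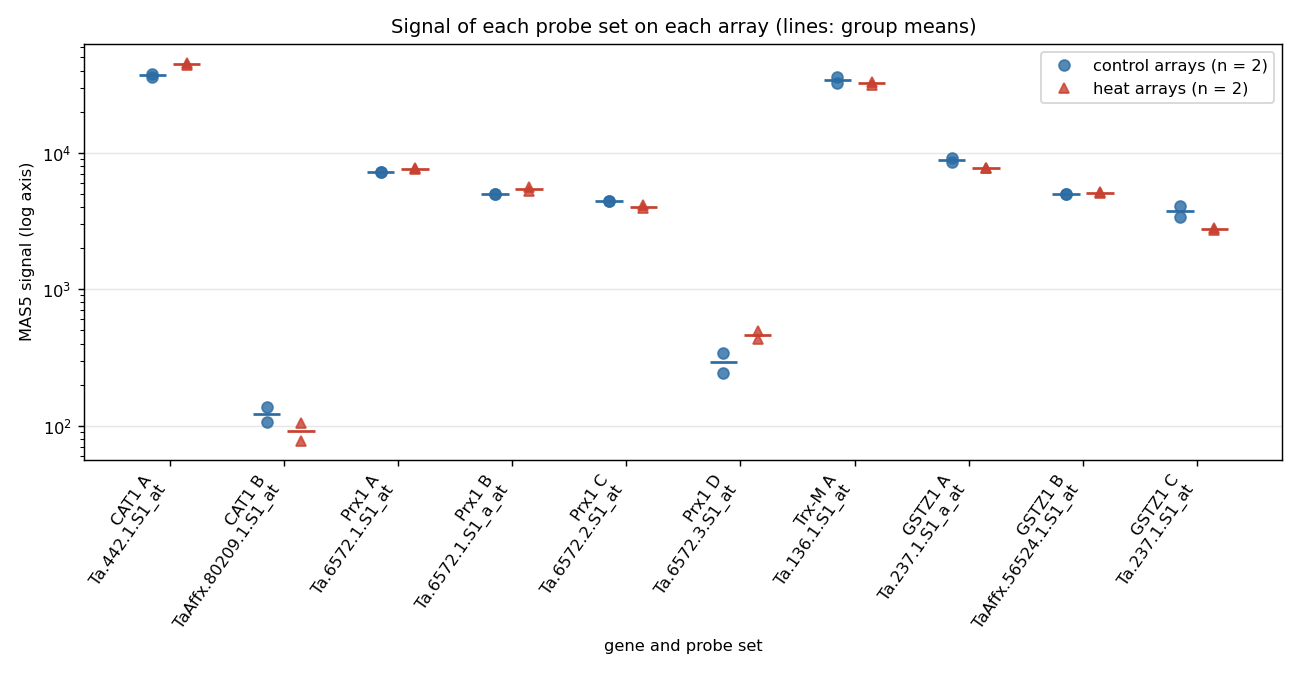
MAS5 signal (log axis) of each of the 10 probe sets on the 2 control arrays (circles) and the 2 heat arrays (triangles), with lines at the group means. Signals range from 77.7 on the dim CAT1 B to 45523 on CAT1 A, and the groups lie close together on this scale.

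CAT1 A, the bright probe set of catalase, had control signals of 36159 and 37646 and heat signals of 45523 and 44229. Both heat arrays were above both control arrays. The mean rose from 36903 ± 1051 to 44876 ± 915 (SD, n = 2), or 1.22-fold (log2 0.28 ± 0.05 SE, 95% interval 0.17 to 0.40, adjusted p = 0.0034 in limma). It was the 62nd and 75th brightest probe set on the control arrays and the 58th and 65th on the heat arrays, so its place in the order hardly moved. The 1000 tested probe sets nearest in signal had a median of log2 0.15. CAT1 A is so near the top that nearly all of them are dimmer than it. Their median is therefore that of the brightest probe sets as a group, not one at the signal of CAT1 A. Nearer to CAT1 A in signal were the cre controls, bacteriophage transcripts added to each hybridization. Their 6 probe sets, with signals between 29136 and 50780, stood at log2 0.0048 to 0.27 with a mean of 0.15, and 5 of the 6 were higher on both heat arrays. When the arrays were scaled on these controls, CAT1 stood at log2 0.13 (adjusted p = 0.0518 in limma). It stood at 0.03 under quantile normalization and 0.05 under cyclic loess, also without a call, and at 0.35 with polyA spike scaling and 0.40 with median centring, both past the threshold.

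CAT1 B was dim, with control signals of 138 and 107 and heat signals of 77.7 and 105. Both heat arrays lay below both control arrays, but the nearest arrays of the groups (107 and 105) were almost level. Its log2 fold change was -0.43 ± 0.36 SE, with a 95% interval from -1.28 to 0.42 (adjusted p = 0.397, limma). Taken within each array, the difference between the responses of the 2 CAT1 probe sets was log2 -0.71 ± 0.24 SE (95% interval -1.34 to -0.09). It did not pass after adjustment over the 471 pairs of probe sets that share a gene (adjusted p = 0.106, limma), of which 23.6% passed. With so wide an interval, CAT1 B neither repeats the rise of CAT1 A nor bounds it.

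Trx-M had a single probe set, also among the brightest of the array. It gave 32418 and 35856 in control and 31437 and 33227 in heat. It was the only one of the 10 probe sets whose groups overlapped. The means were 34137 ± 2431 and 32332 ± 1266 (SD, n = 2), at log2 -0.08 ± 0.06 SE (95% interval -0.22 to 0.07, adjusted p = 0.383 in limma). While its signal barely moved, its place in the order did, from 104th and 95th brightest on the control arrays to 232nd and 210th on the heat arrays. Of the 5 other scalings 3 gave a call: log2 -0.38 under quantile normalization (adjusted p = 0.000147), -0.29 under cyclic loess (0.00107) and -0.23 with cre spike scaling (0.00374), all in limma. With median centring the value was 0.04 and with polyA spike scaling -0.0097, neither past the threshold. The size and the call for Trx-M thus change with the scaling, and its sign turned only with median centring among the 5 other scalings.

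**Figure D2:**
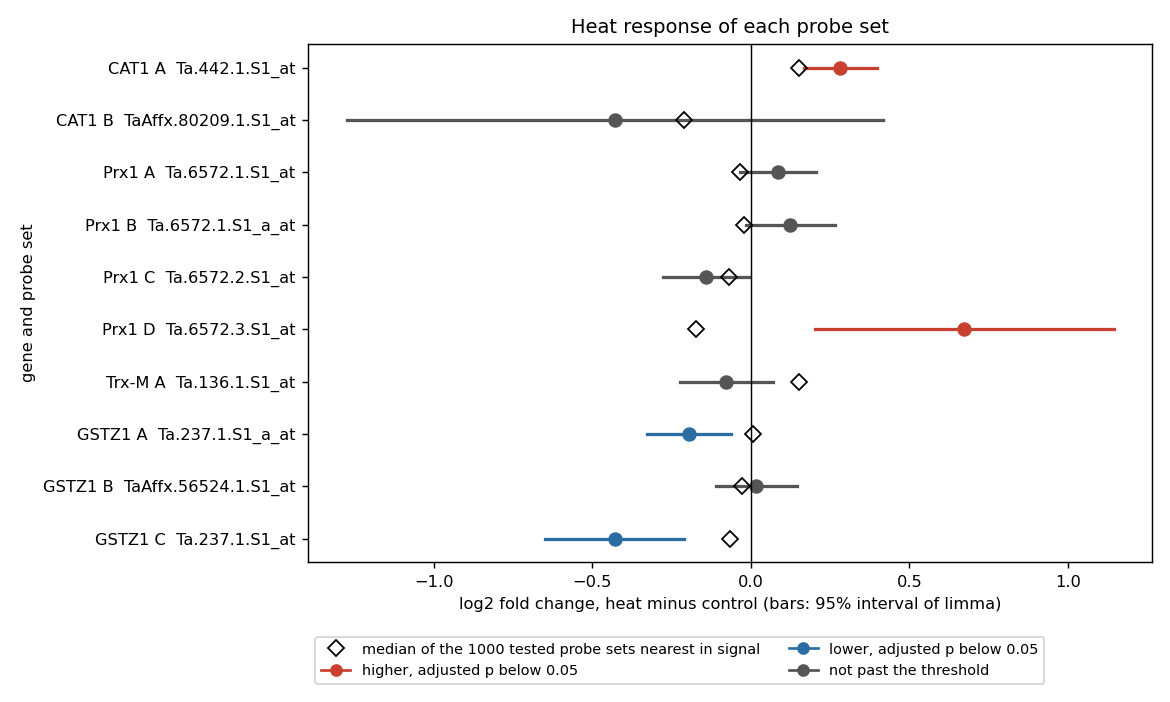
Log2 fold change (heat minus control) of each probe set with its 95% interval in limma. Open diamonds mark the median of the 1000 tested probe sets nearest in signal. It is 0.15 for CAT1 A and Trx-M, where most of the 1000 are dimmer than the member. For the others it lies between -0.21 and 0.0077.

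Prx1 was measured by 4 probe sets whose identifiers share a cluster number, and only the dimmest, Prx1 D, passed the threshold. It gave 245 and 340 in control and 429 and 494 in heat, with no overlap. It rose 1.59-fold (log2 0.67 ± 0.20 SE, 95% interval 0.20 to 1.15, adjusted p = 0.0345 in limma), while the 1000 probe sets nearest in signal had a median of -0.17. The call was lost without control replicate 1 (log2 0.44, adjusted p = 0.167), the array with the lowest signal, and without heat replicate 2 (0.57, adjusted p = 0.119), the array with the highest. It was also lost with cre spike scaling (0.52, adjusted p = 0.0611), though its direction held under each alternative that tested it.

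The other 3 Prx1 probe sets were much brighter, and their fold changes lay between 0.907 and 1.09. Prx1 A gave 7221 and 7195 in control and 7619 and 7667 in heat. The groups did not overlap, but the difference was log2 0.08 ± 0.05 SE (95% interval -0.04 to 0.20, adjusted p = 0.244 in limma). Prx1 B, which is annotated with the same source sequence (CK212997) as A, gave 4996 and 5020 in control and 5278 and 5648 in heat, at log2 0.12 ± 0.06 SE (adjusted p = 0.146 in limma). Prx1 C went the other way, with 4444 and 4417 in control and 4112 and 3928 in heat, at log2 -0.14 ± 0.06 SE (adjusted p = 0.103 in limma). This last probe set was lower past the threshold under quantile normalization (log2 -0.21) and cre spike scaling (-0.30).

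Among the 6 pairs of Prx1 probe sets, differences in response ran from log2 0.04 to 0.81 in size. The widest, between Prx1 D and Prx1 C, was 0.81 ± 0.23 SE (95% interval 0.21 to 1.41, adjusted p = 0.0676 in limma). At an unadjusted p below 0.05 in limma there were 5 of the 6 pairs, and 171 of all 471 pairs within a gene. After adjustment over the 471, 0 of the 6 passed, against 23.6% of all. The probe set that rose and the one that stood lower thus give opposite signs for a gene with 1 name, at a difference that misses the threshold. Wheat carries 3 related sets of chromosomes. Prx1 C and D are annotated with source sequences of their own, apart from that of A and B, so they may report different copies of the gene. Whether they do was not tested, because no probe sequences were used here.

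For GSTZ1, 2 of 3 probe sets fell. GSTZ1 C gave 4082 and 3370 in control and 2791 and 2714 in heat, with no overlap. It fell by 0.43 ± 0.09 SE on the log2 scale (95% interval -0.65 to -0.21, adjusted p = 0.0093 in limma), a 1.35-fold fall, while its neighbours in signal had a median of -0.06. The control arrays were far apart, and without control replicate 1 the value was -0.29 (adjusted p = 0.0529). Its direction and its call held under all 5 other scalings. GSTZ1 A gave 8570 and 9185 in control and 7702 and 7787 in heat, again with no overlap. It fell 1.15-fold (log2 -0.20 ± 0.06 SE, 95% interval -0.33 to -0.06, adjusted p = 0.0304 in limma). This call was lost with median centring (-0.08), polyA spike scaling (-0.13) and each omission of an array except that of control replicate 1.

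GSTZ1 B did not pass. It gave 5021 and 5024 in control and 5140 and 5027 in heat, and its log2 fold change was 0.02 ± 0.05 SE (95% interval -0.11 to 0.15, adjusted p = 0.833 in limma). The probe sets that fell, A and C, are annotated with 1 source sequence (AF002211) and B with another (CA649877). Within each array, C responded lower than B by log2 -0.45 ± 0.12 SE (95% interval -0.76 to -0.13, adjusted p = 0.0602 in limma). The 2 that fell differed from each other by -0.23 ± 0.14 SE (adjusted p = 0.303). The fall of GSTZ1 therefore rests on probe sets of 1 source sequence.

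**Figure D3:**
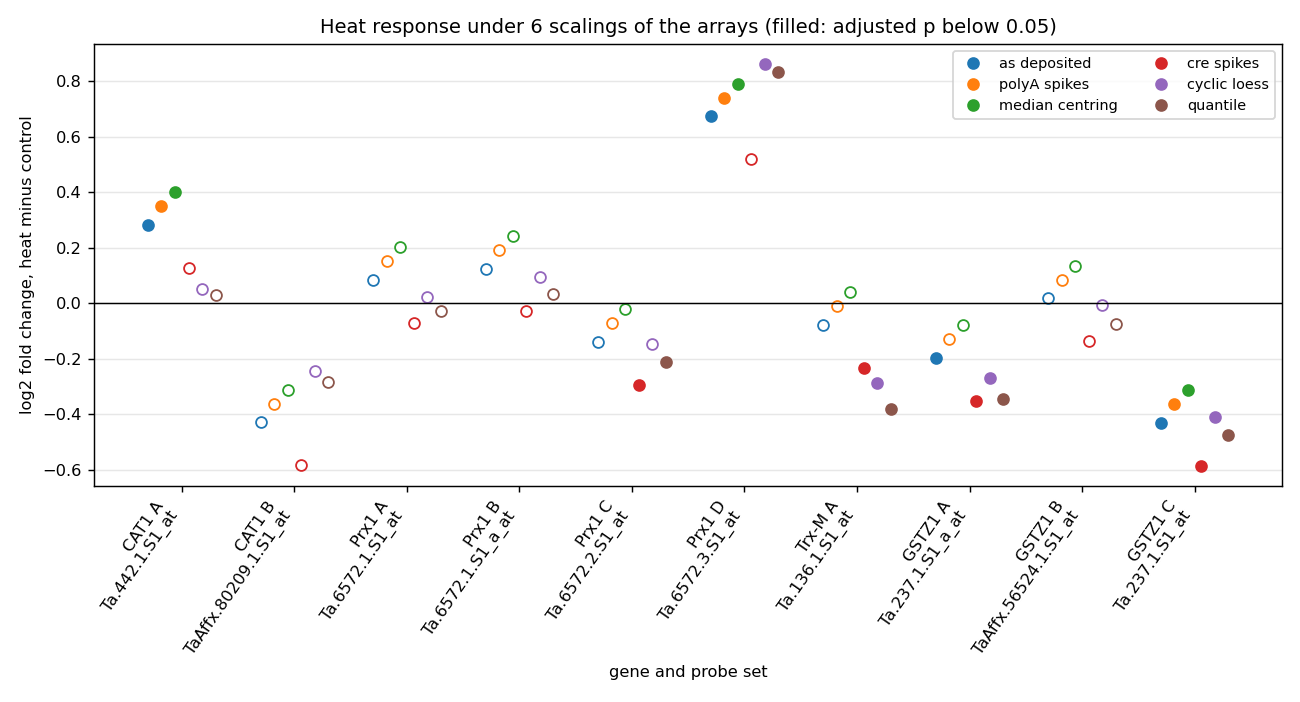
Log2 fold change of each probe set under the deposited scaling and 5 others, with filled points for an adjusted p below 0.05 in limma. CAT1 A keeps its sign but loses its call under 3 scalings, Trx-M changes from 0.04 to -0.38, and GSTZ1 C is lower and called under all 6.

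Which members were called depended in part on the scaling, though GSTZ1 C was called under all 6. The 10 probe sets gave 2 higher and 2 lower calls as deposited, 1 and 4 under quantile normalization, 1 and 3 under cyclic loess, 2 and 1 with median centring or polyA spike scaling, and 0 and 4 with cre spike scaling (6 at an unadjusted p below 0.05 in limma). Over the 30590 probe sets tested each time, the split was 4339 higher and 6993 lower as deposited. It was 4626 and 6291 under quantile normalization, 5078 and 5463 under cyclic loess, and 5033 and 4958 with median centring. With polyA spike scaling it was 4698 and 5788, and with cre spike scaling 3043 and 9541. The median over all tested probe sets was -0.03 with median centring, -0.02 under cyclic loess and -0.30 with cre spike scaling.

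Responses of different genes were also set against each other within each array, where a shift of a whole array cancels. The brightest probe set of each of the 4 genes gave 6 pairs, so each gene name stands here for its probe set A. They were added to the fit of the 471 pairs and adjusted over all 477, of which 24.3% passed. As 471 of these are pairs within a gene, that share is no background for pairs between genes, and none was computed. The estimate of the spread is likewise drawn mostly from pairs within a gene. The SE and p-values of the 6 pairs may therefore be too small. CAT1 responded higher than GSTZ1 by log2 0.48 ± 0.04 SE (95% interval 0.36 to 0.59, adjusted p = 0.00516 in limma). This difference was called under 10 of 12 alternatives, among them each omission of an array, quantile normalization (0.38) and cyclic loess (0.32). The call was lost without the intensity trend (SE 0.08, adjusted p = 0.0651) and with unmoderated t statistics (adjusted p = 0.087).

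CAT1 also responded higher than Trx-M, at log2 0.36 ± 0.06 SE (95% interval 0.21 to 0.51, adjusted p = 0.0173 in limma). Here the call was lost without any one of the 4 arrays (log2 0.30 to 0.42). CAT1 against Prx1 (0.20 ± 0.05 SE, adjusted p = 0.0439) and Prx1 against GSTZ1 (0.28 ± 0.06 SE, adjusted p = 0.0423, both in limma) also passed. Without any one array both calls were lost, at differences of 0.17 to 0.23 and 0.23 to 0.33. Both were also lost with the replicate block (adjusted p = 0.0743 and 0.0562). Under quantile normalization CAT1 and Prx1 differed by only 0.06, and under cyclic loess by 0.03. Prx1 against Trx-M (0.16, 95% interval -0.02 to 0.34) and Trx-M against GSTZ1 (0.12, 95% interval -0.0037 to 0.24) did not pass. Prx1 against Trx-M did pass under quantile normalization (0.35, adjusted p = 0.0137) and cyclic loess (0.31, adjusted p = 0.0312, both in limma). Trx-M against GSTZ1 turned sign there, at -0.035 and -0.019, without a call.

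**Figure D4:**
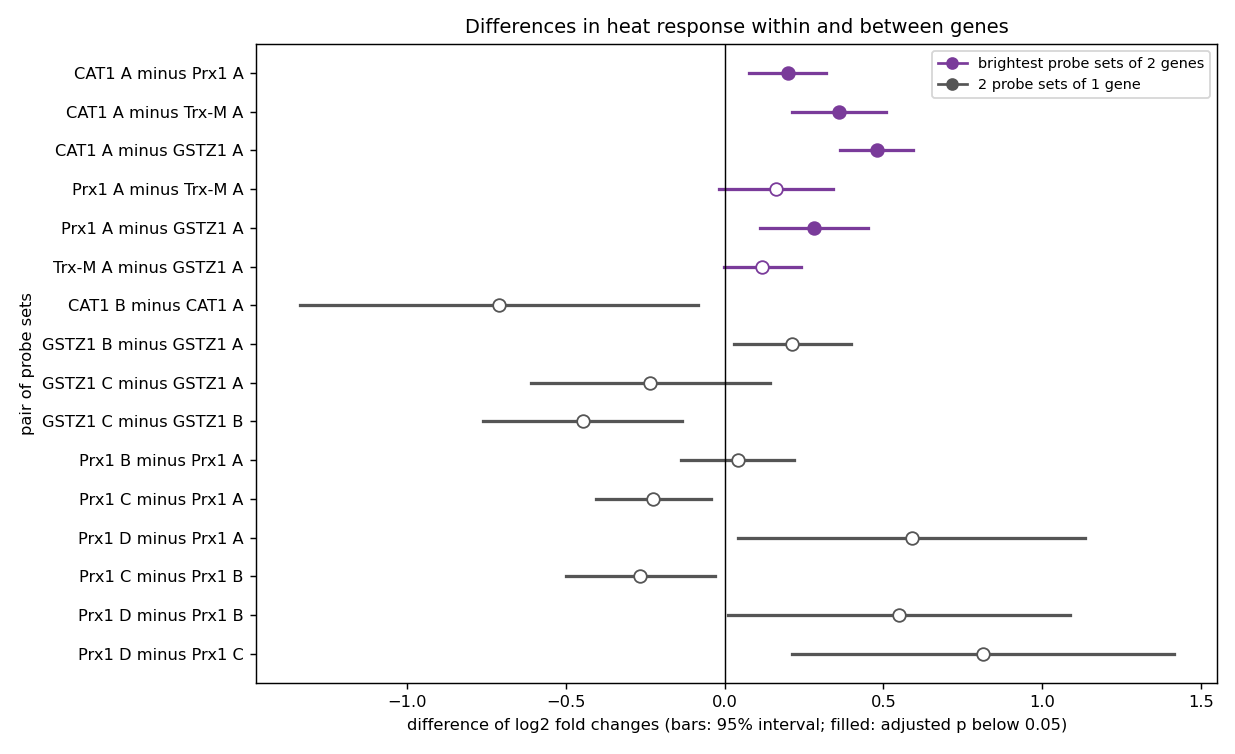
Difference of log2 fold changes between the brightest probe sets of the 4 genes (6 pairs, purple) and between probe sets of 1 gene (10 pairs, grey), with 95% intervals. Filled points passed at an adjusted p below 0.05 in limma: 4 of the 6 pairs between genes and 0 of the 10 within a gene. Of those 10, 8 had an unadjusted p below 0.05. Over all 471 pairs within a gene 23.6% passed, and 171 had an unadjusted p below 0.05. No background was computed for pairs between genes.

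The list of other antioxidant and thiol genes was written to cover superoxide dismutases, ascorbate and glutathione peroxidases, peroxiredoxins, thioredoxins, glutaredoxins, glutathione transferases, enzymes of glutathione and ascorbate recycling, and alternative oxidase. Only 1 further gene on the array carried a matching name, PER1, with the synonym peroxidase. Of its 2 probe sets 1 was bright enough to test. It gave 85.2 and 142 in control and 90.1 and 50.9 in heat, which overlap. Its log2 fold change was -0.70 ± 0.47 SE (adjusted p = 0.288 in limma), so 0 of 1 passed, and 0 had an unadjusted p below 0.05. The array therefore gives no named view of the wider pathway.

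Of the 67 other tested genes with a name, those nearest to each member over the 4 arrays were found. The measure was Euclidean distance between log2 signals centred on the control mean, with the brightest probe set of each gene. For CAT1 they were TEF1 (distance 0.06), cys1 (0.09) and TSA (0.09), with log2 fold changes of 0.25, 0.23 and 0.26 and control means between 23822 and 31371. For Trx-M they were H+-ATPase (0.05), wci (0.10) and Pgk-1 (0.10), with fold changes of -0.07, -0.05 and -0.01. For Prx1 they were eIF-2-beta (0.06), UBC1 (0.07) and AGA.1 (0.08), with fold changes of 0.08, 0.05 and 0.12. For GSTZ1 they were lgul (0.04), NCBP (0.15) and H+-ATPase (0.18), with fold changes of -0.21, -0.22 and -0.07. The last is smaller than that of GSTZ1 A (-0.20), and its groups overlap.

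Each marker gene was represented by its brightest probe set alone. The leaf markers fixed for the tissue were bright on every array, with group means of 32960 to 59912 for rbcL, PRK, PsbO and PsbP. At this brightness, which is that of CAT1 A, 3 of the 4 were higher in heat in limma: rbcL by log2 0.72 (adjusted p = 0.00013), PsbO by 0.35 (0.00208) and PsbP by 0.34 (0.0032), each more than CAT1 A at 0.28. PRK stood at 0.15 (adjusted p = 0.132). Among the 15295 probe sets kept by the stricter filter 9065 passed, 3711 of them higher. Of the grain markers, the gliadin gene Prolamin, the glutenin gene abu-7 and Serpin-Z2A had group means of 125 to 283. The avenin-like gene ALP was bright at 7920 in control and 7817 in heat, so these markers give no clean check for grain. Of the grain markers 0 of 4 passed in limma, and 0 had an unadjusted p below 0.05. In a bulk leaf sample, fewer cells of a type and less RNA per cell cannot be told apart.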

How the data were processed

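The 4 single-colour Affymetrix wheat arrays were grouped by their titles. Per the submitters' processing notes the authors used Affymetrix Expression Console 1.1 with MAS5; the settings used were not found in the sources. The deposited values are linear signal intensities, and their trimmed mean (2% dropped at each end) is 500.1 on each array. The 111 AFFX control probe sets were left out. Log2 of the intensity was tested without further normalization for the 30590 probe sets whose mean log2 signal reached the median (a signal of 69.1), with limma 3.58.1 in R 4.3.3 (intensity trend, two-sided, Benjamini-Hochberg, threshold 0.05). The fit has 2 residual and 5.45 prior degrees of freedom. With 2 arrays a group the smallest two-sided p of an exact permutation test is 0.333, so single values were tested through this fit. Differences between probe sets of a gene were fitted the same way on within-array log2 differences. Both fits were tested on simulated data.

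Gene names came from the platform annotation (1 symbol for 1273 probe sets, several for 0, none for 59906), with synonyms from the RefSeq gene table of IWGSC CS RefSeq v2.1. No coordinates are given, since no build is tied to the values. Identifiers with _s, _x or _a before _at belong to probe sets that may match more than 1 transcript. Among the members these are Prx1 B and GSTZ1 A. The tested probe set of PER1 and those used for rbcL, PsbO, Prolamin, abu-7, Serpin-Z2A, TEF1, UBC1 and H+-ATPase are also of this kind. Detection calls and saturation were not examined; precision is limited by how few arrays there are. The genes named are all members, other antioxidant genes with a tested probe set, and the 3 nearest patterns per member. Members and lists were chosen with earlier results of these data known. Cre spike scaling and the pairs between genes were added after seeing the data, as were quantile normalization and cyclic loess of the pairs.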

Additional observations from a re-analysis of the deposited data

How the results depend on the processing

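The total of 11332 calls among 30590 tested probe sets fell to 7578 without the intensity trend and to 2593 with unmoderated t statistics. With no filter the total was 9888 of 61179, and 6998 of 21303 when shared probe sets were left out. It was 7628 to 10665 when 1 array was left out. Of the 10 probe sets, 4 passed as deposited, 2 with no filter, 1 with unmoderated t statistics, 0 without the intensity trend (3 at an unadjusted p below 0.05 in limma) and 2 to 3 without 1 array. Among the alternatives that tested them, CAT1 A kept its call in 11 of 16, GSTZ1 C in 13 of 16, Prx1 D in 9 of 15 and GSTZ1 A in 7 of 15. With unmoderated t statistics the 1 that passed was Prx1 A (log2 0.08, adjusted p = 0.0482), and all of the 4 calls made as deposited were lost. Signs turned for values that were not called. Prx1 A stood at -0.029 under quantile normalization and -0.070 with cre spike scaling, and Prx1 B at -0.030 with the latter. Trx-M stood at 0.041 with median centring. GSTZ1 B stood at -0.077, -0.0081 and -0.14 under quantile normalization, cyclic loess and cre spike scaling. Of the 471 pairs within a gene 111 passed, 57 with no filter (of 1167), 8 without the trend, 0 with unmoderated t statistics (117 at an unadjusted p below 0.05) and 24 to 53 without 1 array. Of the 10 pairs within the member genes 0 passed. That became 2 with an offset of 64, and 1 with the replicate block or quantile normalization. With the stricter filter it was 1 of the 6 pairs kept, where 106 of all 282 pairs passed. The pairs called were GSTZ1 C against B and Prx1 D against C. Of the 6 pairs between genes 4 passed, 2 with no filter or the replicate block, 0 without the trend (3 at an unadjusted p below 0.05) or with unmoderated t statistics (4), and 1 without any one array. The replicate numbers are not known to pair arrays: deviations of same-numbered arrays correlated at r = 0.01 across probe sets. With the replicate block 11603 probe sets were called, and 4 of the 10. The causes were not tested.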
